A study of Homo sapiens with 6 samples.

Results

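Deep intronic TTD peaks are the regions bound by the paired Tudor modules of UHRF1 (TTD) that lay inside protein-coding genes, outside exons and away from the annotated gene start. They were taken from the 1 pooled list of TTD peaks in HepG2 cells as the peaks fully inside a GENCODE release 44 protein-coding gene record that overlapped no exon of any protein-coding transcript and whose edge was more than 25 kb from the nearest protein-coding transcription start site (TSS). Of 31569 TTD peaks, 7941 met this rule, which is 25.2% of the list (95% Wilson interval 24.7% to 25.6%). Together they spanned 21.3 Mb. The rule used gene annotation only, with no measured value beyond the peak positions.

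The peaks come from CIDOP, a ChIP-like pulldown in which a GST-tagged reading domain, here residues 126 to 280 of UHRF1, replaces the antibody and captures native mononucleosomes released by MNase. The chromatin was from HepG2, an established human hepatoblastoma line used as a model of the hepatocyte, for which the labels name no treatment. TTD CIDOP, H3K9me2 ChIP and input were sequenced with 2 replicates each. The TTD replicates were averaged before the peaks were called, so the list carries no error between replicates, no score and no depth per library, and the H3K9me2 and input signals were not analysed here. HepG2 carries extra copies of several chromosomes, and the study's methods name neither an input track nor a correction for copy number in the calling of the peaks. All intervals below cover counting error only.

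UHRF1 guides the maintenance DNA methyltransferase DNMT1 to newly replicated DNA, and its TTD reads the tail of histone H3 methylated at lysine 9. H3K9me2 forms broad domains over genes and gene-poor sequence, whereas H3K4me1, which strengthens binding of the TTD to H3K9me2/3, marks enhancers and the flanks of promoters. In hepatocytes many enhancers lie in introns, where the pioneer factors FOXA1 and FOXA2 and the nuclear receptor HNF4A bind DNA and keep liver genes active.

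To show what the bound sequence looks like, 8 windows of 300 bases centred on deep intronic peaks are given, all read from the plus strand of hg38. Capitals mark the letters CAAAGTCCA (or TGGACTTTG, its other strand), the core of an HNF4A site, and the letters TGTTTAC (or GTAAACA), the core of a FOXA site. The first 5 are all the windows in which both sets of letters start within 20 bases of each other, and the other 3 are windows with HNF4A letters in RAD51B, MSI2 and LPP, which are among the 20 genes with the most deep intronic peaks. They were chosen after the matches were seen. Not all windows with HNF4A letters in these 20 genes are given, as those left out include 1 in TTC6 and another in RAD51B. The windows lie at chr2:133486076-133486375 in intron 3 of NCKAP5, chr2:162607941-162608240 in intron 2 of the potassium channel gene KCNH7, chr3:63508781-63509080 in intron 3 of the synaptic vesicle gene SYNPR, chr6:54210201-54210500 in intron 11 of MLIP and chr10:126309336-126309635 in intron 2 of the metalloprotease gene ADAM12, with introns counted along the canonical transcript. The other 3 lie at chr14:68018751-68019050 in intron 7 of RAD51B, chr17:57588881-57589180 in intron 7 of MSI2 and chr3:188662986-188663285 in intron 7 of LPP. Their peaks were 680 to 4190 bp wide.
NCKAP5: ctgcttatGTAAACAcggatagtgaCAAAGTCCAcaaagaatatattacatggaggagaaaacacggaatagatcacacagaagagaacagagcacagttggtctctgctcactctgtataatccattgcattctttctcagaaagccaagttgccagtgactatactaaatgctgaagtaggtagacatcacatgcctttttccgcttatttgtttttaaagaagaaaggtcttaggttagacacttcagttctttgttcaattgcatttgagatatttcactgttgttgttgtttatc
KCNH7: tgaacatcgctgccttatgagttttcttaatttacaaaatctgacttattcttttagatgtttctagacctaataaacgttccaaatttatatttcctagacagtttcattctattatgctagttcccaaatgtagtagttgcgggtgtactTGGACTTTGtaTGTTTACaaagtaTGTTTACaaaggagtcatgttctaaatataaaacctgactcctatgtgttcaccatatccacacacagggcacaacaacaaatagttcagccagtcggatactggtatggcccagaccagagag
SYNPR: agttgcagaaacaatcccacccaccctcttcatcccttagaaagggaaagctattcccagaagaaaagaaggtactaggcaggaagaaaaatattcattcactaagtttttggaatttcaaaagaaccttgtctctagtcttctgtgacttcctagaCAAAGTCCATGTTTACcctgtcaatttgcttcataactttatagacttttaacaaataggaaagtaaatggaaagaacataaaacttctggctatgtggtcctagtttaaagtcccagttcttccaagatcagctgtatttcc
MLIP: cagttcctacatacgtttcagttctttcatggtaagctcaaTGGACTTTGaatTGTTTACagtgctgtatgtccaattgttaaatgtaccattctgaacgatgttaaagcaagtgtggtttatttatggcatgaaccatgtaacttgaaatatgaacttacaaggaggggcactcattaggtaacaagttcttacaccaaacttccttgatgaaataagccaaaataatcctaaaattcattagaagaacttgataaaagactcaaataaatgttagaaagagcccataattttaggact
ADAM12: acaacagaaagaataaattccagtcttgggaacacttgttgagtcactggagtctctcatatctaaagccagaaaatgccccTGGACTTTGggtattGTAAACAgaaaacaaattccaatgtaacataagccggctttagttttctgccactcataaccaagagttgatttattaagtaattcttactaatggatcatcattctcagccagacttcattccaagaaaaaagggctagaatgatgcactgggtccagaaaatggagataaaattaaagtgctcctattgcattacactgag
RAD51B: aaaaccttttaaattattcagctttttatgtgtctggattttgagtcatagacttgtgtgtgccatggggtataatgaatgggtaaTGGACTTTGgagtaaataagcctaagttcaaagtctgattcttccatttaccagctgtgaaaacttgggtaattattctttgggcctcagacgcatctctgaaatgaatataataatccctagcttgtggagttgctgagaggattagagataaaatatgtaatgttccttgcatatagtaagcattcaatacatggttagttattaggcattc
MSI2: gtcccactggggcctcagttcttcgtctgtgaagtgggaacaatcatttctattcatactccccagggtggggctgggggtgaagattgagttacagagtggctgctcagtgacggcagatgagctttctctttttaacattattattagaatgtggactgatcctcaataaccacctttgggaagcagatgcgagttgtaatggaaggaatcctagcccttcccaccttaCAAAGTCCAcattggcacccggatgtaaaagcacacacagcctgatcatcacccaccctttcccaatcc
LPP: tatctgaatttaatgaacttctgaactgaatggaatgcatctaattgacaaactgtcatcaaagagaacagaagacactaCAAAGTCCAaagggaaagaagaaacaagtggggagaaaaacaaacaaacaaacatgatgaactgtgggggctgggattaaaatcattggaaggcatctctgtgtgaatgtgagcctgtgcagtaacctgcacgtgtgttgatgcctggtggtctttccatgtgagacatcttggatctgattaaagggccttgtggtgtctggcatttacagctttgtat
In SYNPR the HNF4A and FOXA letters adjoined each other without a gap, and in KCNH7 a single HNF4A match was followed by 2 FOXA matches. In KCNH7, MLIP, ADAM12 and RAD51B the HNF4A letters were read on the minus strand.

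The median width of deep intronic peaks was 2140 bp (95% order-statistic interval 2100 to 2180), with quartiles at 1320 and 3390 bp and a range of 160 to 27860 bp. The whole list had a median of 2250 bp (2230 to 2270). The rule itself drops wide peaks, which more often touch an exon, a gene end or the 25 kb zone, and when peaks were classed by their midpoint alone the deep intronic median was 2300 bp, so the order turned. Intronic peaks within 25 kb of a TSS (3896 peaks) were narrower, with a median of 1970 bp (1930 to 2020), and intergenic peaks as far from a TSS (10063 peaks) were wider, with a median of 2390 bp (2360 to 2430). These 3 intervals did not overlap. Broad peaks were few in both intronic classes. There were 98 deep intronic peaks (1.23%, 1.01% to 1.5%) of 10 kb or more, against 32 of the intronic peaks near a TSS (0.821%, 0.582% to 1.16%), 2.3% of the whole list and 321 of the distant intergenic peaks (3.19%, 2.86% to 3.55%). The widest member, of 27860 bp, lay in intron 5 of MACROD2, which encodes an enzyme that removes ADP-ribose from proteins.

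**Figure D1:**
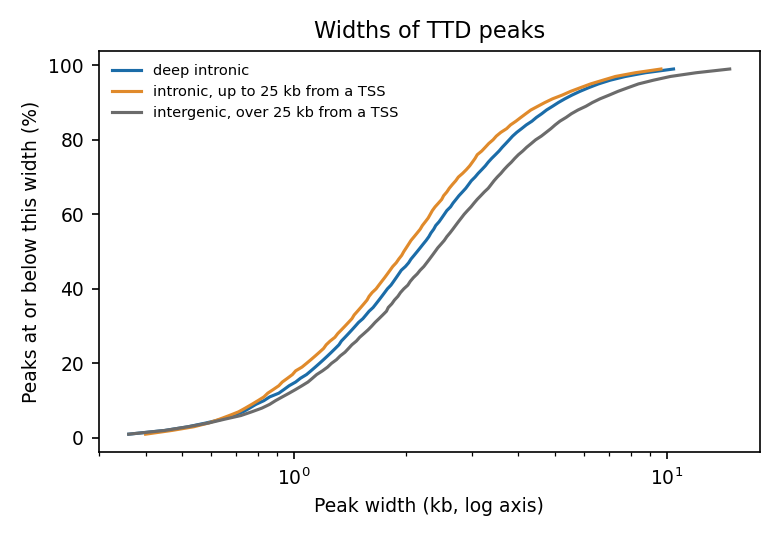
Cumulative share of peaks in percent against peak width in kb on a log axis, for deep intronic peaks, intronic peaks within 25 kb of a TSS and intergenic peaks more than 25 kb from one, drawn from the 1st to the 99th percentile. The deep intronic curve, with its median at 2140 bp, lies between those with medians of 1970 bp and 2390 bp.

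The members next in width lay in genes of different kinds. They lay in the anthrax toxin receptor gene ANTXR1 (23280 bp), the sodium-calcium exchanger gene SLC24A3 (20040 bp), the axon guidance receptor gene ROBO1 (19310 bp), the formin gene FMNL2 (19290 bp), SUSD6 (18960 bp), the ciliogenesis gene WDPCP (17940 bp), NOS1AP (16970 bp), the phospholipase gene PLCB1 (16820 bp) and the retinal dehydrogenase gene ALDH1A1 (16410 bp). Each of these 10 peaks had another TTD peak within 3150 bp of its edge, so they formed parts of larger bound stretches. MACROD2, SLC24A3 and PLCB1 lie on chromosome 20, ANTXR1, FMNL2 and WDPCP on chromosome 2 and SUSD6 on chromosome 14. These chromosomes are among those taken as gained in HepG2 (below), whereas ROBO1, NOS1AP and ALDH1A1 lie on others. Over all members the nearest other TTD peak was a median of 10370 bp away, and 49.4% (48.3% to 50.5%) had one within 10 kb, close to the 51.4% of the whole list.

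Deep intronic sequence, meaning all bases that satisfied the same rule, made up 855 Mb or 27.7% of the genome. TTD peaks covered 3.36% of it, at 9.29 deep intronic peaks per Mb. Members made up 74.0% of the covered bases, and the rest belonged to TTD peaks that also touched an exon, a gene end or the 25 kb zone. Cover was higher in intronic sequence within 25 kb of a TSS, at 4.22%, and lower in intergenic sequence beyond 25 kb, at 2.24%. Deep introns thus stood between promoter-near introns and distant intergenic sequence.

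The order of introns and intergenic sequence depended on the distance to the nearest TSS. At 25 to 50 kb, introns were covered to 3.94% and intergenic sequence to 4.51%. From 100 to 200 kb the order was the opposite, with 3.51% against 3.31%. Beyond 400 kb introns had 1.53% and intergenic sequence 0.631%. Cover therefore fell with distance in both, but less steeply inside genes. Peak density showed the same crossing, with 10.7 against 14 peaks per Mb at 25 to 50 kb and 4.46 against 1.86 peaks per Mb beyond 400 kb. No step was seen at the 25 kb limit itself. The 110 intronic peaks at 24 to 25 kb had a median width of 1840 bp, and the 102 at 25 to 26 kb one of 1820 bp.

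**Figure D2:**
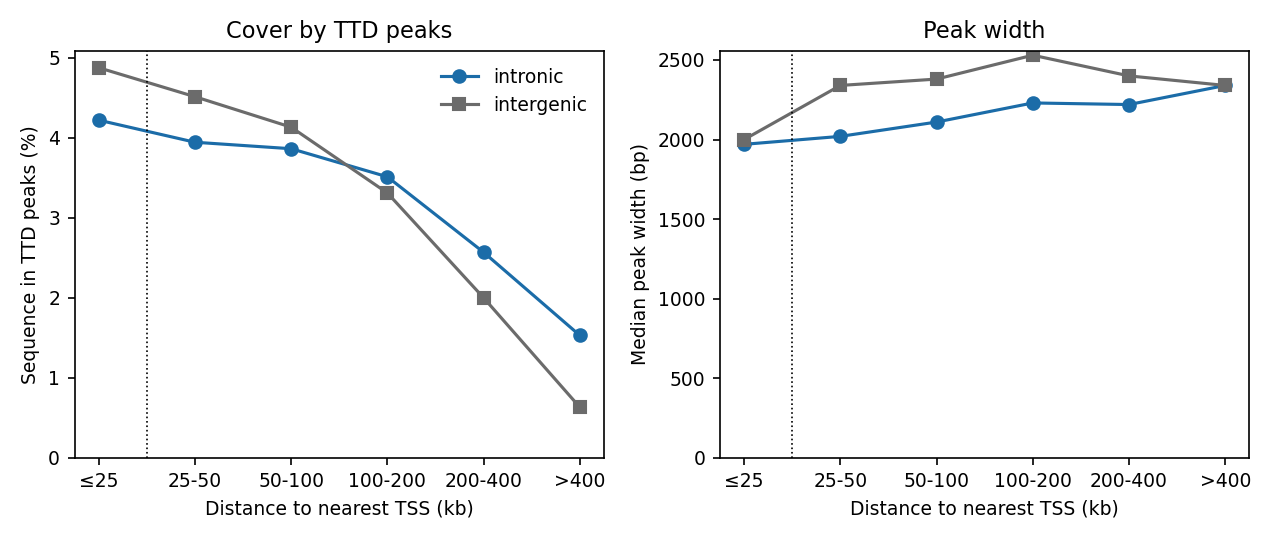
Percent of sequence in TTD peaks (left) and median peak width in bp (right) against distance to the nearest protein-coding TSS in kb, for intronic and intergenic sequence, with the 25 kb limit as a dotted line. Intronic cover fell from 4.22% to 1.53% and intergenic cover from 4.87% to 0.631%, and the lines cross between 50 and 200 kb.

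The members lay nearer to exons than to gene starts, which the rule itself sets, since it demands 25 kb from a TSS but only no overlap with an exon. The nearest TSS was a median of 82.9 kb away (quartiles 47.1 and 155 kb), and for 35.9% of members (34.8% to 36.9%) it belonged to another gene than the host. The start of the host gene was a median of 106 kb away. Exons were closer, at a median of 7.12 kb. Still, 40.9% of members (39.9% to 42.0%) lay more than 10 kb from an exon, and 13.6% (12.9% to 14.4%) lay within 1 kb of one. When the starts of all transcripts were used instead of 1 per gene, only 3829 members were still more than 25 kb from a start, so many lay nearer to the start of another transcript. The holding introns were long, with a median of 56.0 kb over the 6923 members that fell inside an intron of the canonical transcript.

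Early introns were covered more than late ones. Intron 1 held 1611 members (20.3%, 19.4% to 21.2%) in 15.2% of the deep intronic sequence and was covered to 4.41%. Intron 2 was covered to 4.30%. Shares of sequence by intron are of the sum over the intron classes, which is larger than the 855 Mb given above. In intron 3 cover was 3.09%, and in later introns, with 49.9% of the sequence and 39.6% of the members, it was 2.81%. The share of intron 1 depends on the distance limit, since the rule removes the sequence next to the gene start. Introns that also lay in a long noncoding RNA gene record had 4.1% cover against 3.3% elsewhere. Such records held 7.68% of the deep intronic sequence, and 754 members (9.50%, 8.87% to 10.2%) overlapped one, in part or wholly. Counting partial overlaps raises the share of members. Of these members, 95 spanned the start of a long noncoding RNA gene. A further 1018 members (12.8%) lay outside the canonical transcript of their host, in sequence that the gene record contains because of other transcripts.

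The members also contained 15 microRNA genes. Among them were MIR586 in SUPT3H, inside a peak of 7030 bp, and MIR3692 in ZDHHC14, inside one of 11900 bp. MIR4295 lay in a peak of 4280 bp in VTI1A, a gene for a vesicle SNARE protein. MIR3670-4 and MIR3179-4 lay in NOMO2, one of several near-identical gene copies on chromosome 16, where short reads cannot be placed with certainty. These were chosen after the overlaps were seen. The share of all deep intronic microRNA genes that lay in members is not given. The 15 can therefore not be read as more or fewer than cover alone would give.

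Chromosomes differed widely. The deep introns of chromosome 20 were covered to 7.93% (18.5 members per Mb), followed by chromosome 14 at 5.62%, chromosome 2 at 5.54%, chromosome 16 at 5.38%, chromosome 6 at 5.15% and chromosome 17 at 4.38%. Chromosomes 2, 14, 16, 17 and 20 are taken as gained in HepG2 from general knowledge of its karyotype. Together they had 14.1 members per Mb and 5.62% cover, and the other 17 autosomes had 8.56 members per Mb and 2.97% cover. Copy number was not measured here, and its part in these values was not tested. Chromosome X had the lowest cover, at 0.387%, and chromosome 19, which is rich in genes and short of deep introns, had 0.878%.

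The members lay in 2847 genes. To set gene lists against a background, the 6030 genes with at least 20 kb of deep intronic sequence were used, of which 2738 (45.4%) held 1 or more members. Hosts were uneven. Of the 2847 hosts, 1337 held a single member, 448 held 5 or more and 25 held 20 or more. The tenth of the 6030 genes with the most members (603 genes) contained 57.5% of all members. These genes were picked by that number, and their share of the deep intronic sequence is not given. The part of gene length in this unevenness was not tested. Longer genes held members more often. Among genes with 20 to 50 kb of deep intronic sequence 21.2% held a member, against 63.2% of those with 100 to 200 kb and 76.5% of those with 800 kb or more. Cover did not rise in the same way. It was 3.42%, 4.11% and 1.56% in these 3 classes, so the very long genes had peaks more often but less of their sequence bound.

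LRMDA, a leucine-rich repeat gene linked to melanocyte differentiation, held the most members, 48 in 1097 kb of deep intronic sequence, with 17.5% of that sequence covered. RAD51B, a gene of homologous recombination, held 39 with 16.1% covered. PLCB1, the phospholipase C gene named above for its broad peak, held 37 with 22.6% covered. WWOX, an oxidoreductase gene that spans a common fragile site, held 35 with 13.2% covered. In these 4 genes bound stretches recurred along most of the gene body.

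The rest of the 20 leading hosts were of many kinds. SNX29 held 31 members, the tRNA-modifying enzyme gene CDKAL1 30 and the HIF prolyl hydroxylase gene EGLN3 28, the last in a gene record much longer than its usual transcript. FGGY, a carbohydrate kinase gene, held 27 with 28.3% of its deep intronic sequence covered. MACROD2 held 25, and the Musashi RNA-binding protein gene MSI2, the protein kinase C gene PRKCA, the cAMP phosphodiesterase gene PDE4D and BCAS3 held 24 each. TTC6, whose start overlaps the record of FOXA1, held 23 and had the largest cover of the 20, 34.8%. The focal adhesion gene LPP, SUPT3H, RUNX1 and the polarity gene PARD3 held 22 each. The transcription factor gene ZFHX3 held 21 and the RNA demethylase gene FTO held 20. Since 25 hosts held 20 or more, FTO was tied with hosts that are not among these 20. Density ranged from 12.7 members per Mb in MACROD2 to 61.9 in MSI2, against 9.44 for all 6030 genes. The 20 were picked by their number of members, so densities above 9.44 are no separate result. Of these 20 genes, 12 lie on chromosomes taken as gained, which hold 18.8% of the deep intronic sequence and 28.5% of the members.

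**Figure D3:**
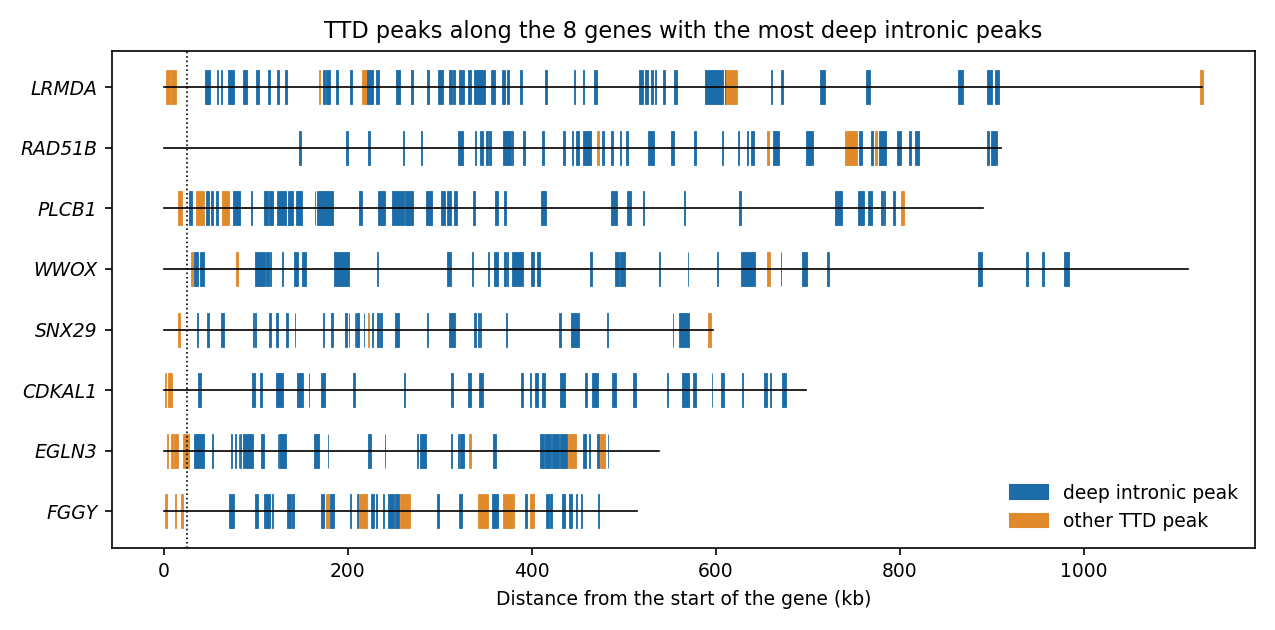
TTD peaks along the 8 genes with the most deep intronic peaks, against distance from the start of the gene record in kb. Blue boxes are deep intronic peaks and orange boxes other TTD peaks, each with an outline of about 1 kb, black lines are the gene records, and the dotted line marks 25 kb. LRMDA, with 48 members, and PLCB1, with 37, have peaks along most of their length.

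The genes with the largest cover were shorter, and much of their cover came from TTD peaks that are not members. POU2AF1, a coactivator gene of B cells, was covered to 69.2% of its 71.9 kb of deep intronic sequence, although its 3 members span only 16.5 kb. STXBP6, a gene for a SNARE-binding protein, had 67.2% of 209 kb covered by peaks that included 19 members, at 91.1 members per Mb. The steroid-converting aldo-keto reductase gene AKR1C3 had 63.2%, HS1BP3 62.0% and EVA1A 62.0%. SUB1 had 60.5% and the NADPH oxidase gene NOX3 60.4%. In ABCC11 (61.2%), the complement gene C8A (59.6%) and the endocytic adaptor gene DAB2 (57.6%) the cover came wholly from TTD peaks that also touched an exon, a gene end or the 25 kb zone, since these 3 genes held no member. AKR1C3 belongs to a family of near-identical genes, for which the placing of reads is uncertain. Across all 6030 genes the median cover was 0.550% and 685 genes had 10% or more.

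Some of the longest genes held no member at all. The 4 with the most deep intronic sequence were NRXN3 (1658 kb), IL1RAPL1 (1341 kb), NAALADL2 (1334 kb) and LRRC4C (1316 kb). Of these 4, NRXN3, IL1RAPL1 and LRRC4C encode proteins of the synapse. Their cover was 0, so no other TTD peak reached into their deep introns. The list has no score, and a lack of peaks holds only for the cutoff used by the authors.

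Genes for hepatocyte transcription factors had members more often than genes of like length. Of the 19 with enough deep intronic sequence, 15 held a member (78.9%, 56.7% to 91.5%). All genes in the same length classes gave 52.4%. The list had 17.3 members per Mb against 9.44 for all genes, and its median gene cover was 3.88%, against 0.550% for all genes and 1.79% for genes with 100 to 200 kb of deep intronic sequence, the class that holds the median length of the list. NFIA held 19 members with 9.15% cover, and the thyroid hormone receptor gene THRB 9 with 14.3%. ARID5B, a chromatin regulator gene, also held 9 with 18.4%. HNF4A itself held 1 member, with 14.1% of its 42.1 kb covered, and the glucose-metabolism coactivator gene PPARGC1A held 3 with 24.1%. The bile acid receptor gene NR1H4, RXRA, PROX1 and GATA4 held none.

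Growth factor and insulin signalling stood out likewise. Here 26 of 32 genes held a member (81.2%, 64.7% to 91.1%, against 48.3% in the same length classes), and the density of 19.3 members per Mb was the highest of the 9 lists. RPTOR, the raptor subunit of mTORC1, held 10 members with 7.60% cover, the kinase gene JAK1 9 with 14.6% and the receptor gene IGF1R 8 with 8.22%. IRS1, the insulin receptor substrate, held 4 in 38.6 kb and was covered to 52.0%, and FOXO1, which insulin signalling restrains, held 5 with 18.1%. JAK2, MTOR, PIK3CA, IL6R, IL6ST and IGF2R were without members.

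In lipid and cholesterol metabolism 13 of 26 genes held a member (50.0%, 32.1% to 67.9%, against 37.1% in the same length classes), at 16.6 members per Mb. The fatty acid translocase gene CD36 held 7 with 18.4% cover, hepatic lipase gene LIPC 6 with 25.2% and the cholesterol exporter gene ABCA1 2 with 8.88%. Among hepatic transporters 13 of 27 held a member (48.1%, 30.7% to 66.0%, against 40.1%), at 14.1 members per Mb. SLC25A13, the mitochondrial aspartate-glutamate carrier, held 6 with 8.24% cover, the efflux pump gene ABCC4 6 with 7.26% and the lipid flippase gene ATP8B1 5 with 9.39%. The shares of both lists lay within counting error of the length classes, while their median gene cover, 5.17% and 6.81%, was above the 0.550% of all genes.

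Genes for metabolic enzymes and plasma proteins, the main products of the hepatocyte, were divided. Of 21 enzyme genes 5 held a member (23.8%, 10.6% to 45.1%, against 35.6% in the same length classes), a share within counting error, at 9.14 members per Mb against 9.44 for all genes. The cover of the list was 7.33% against 3.39%, but its median gene cover was 0, so the cover came from few genes. Cover differed among those that did. ALDH1A1 held 7 with 27.8% cover and CPS1, the first enzyme of the urea cycle, 5 with 25%, whereas the xanthine oxidase gene XDH held 1 with 1.32%. DPYD, with 886 kb of deep intronic sequence the longest of this list, had neither members nor cover. Among plasma proteins 3 of 13 genes held a member (23.1%, 8.18% to 50.3%, against 27.4%). The complement gene C6 held 2 with 20.9% cover and the anticoagulant gene PROS1 2 with 3.70%. C1S also held 2, in 17.9 kb, which is under the minimum of 20 kb for the counts. The cover of the plasma protein list fell from 8.13% to 5.05% without C8A.

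Synaptic and neuronal adhesion genes, taken as long genes with little use in the liver, had the lowest density. Although 44 of 71 held a member (62.0%, 50.3% to 72.4%), all genes in the same length classes gave 75.8%. The density was 2.22 members per Mb and the cover 0.634%. The gap was also present among genes of like length. Of genes with 800 kb or more of deep intronic sequence, the 43 on the list had 2.31 members per Mb and the 76 others 6.28, and between 400 and 800 kb the 18 on the list had 1.59 and the 282 others 9.92. ROBO1 was an exception, with 15 members and 5.54% cover, followed by DLG2 with 14 and 1.37% and ROBO2 with 8 and 1.43%.

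DNA repair and chromatin genes served as lists of genes used in most cells. For DNA repair 12 of 38 held a member (31.6%, 19.1% to 47.5%, against 41.3% in the same length classes), and the density of 15.4 members per Mb fell to 7.79 without RAD51B. FANCC held 9 with 6.62% cover and the polymerase gene REV3L 2 with 4.43%. For chromatin writers, erasers and DNA methylation 14 of 31 held a member (45.2%, 29.2% to 62.2%, against 49.9%), at 10.7 per Mb, near the value of all genes. SMYD3 held 11 with 4.14% cover, the H3K9 demethylase gene KDM4C 10 with 8.91% and the PRC2 cofactor gene JARID2 9 with 11.2%. Without the chromosomes taken as gained, the liver transcription factor list had 17.1 members per Mb, insulin signalling 20.9, lipid metabolism 20.1, transporters 16.2, metabolic enzymes 6.28 (with members in 2 of 18 genes), DNA repair 7.85 and synaptic genes 2.08, against 8.30 for all genes.

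**Figure D4:**
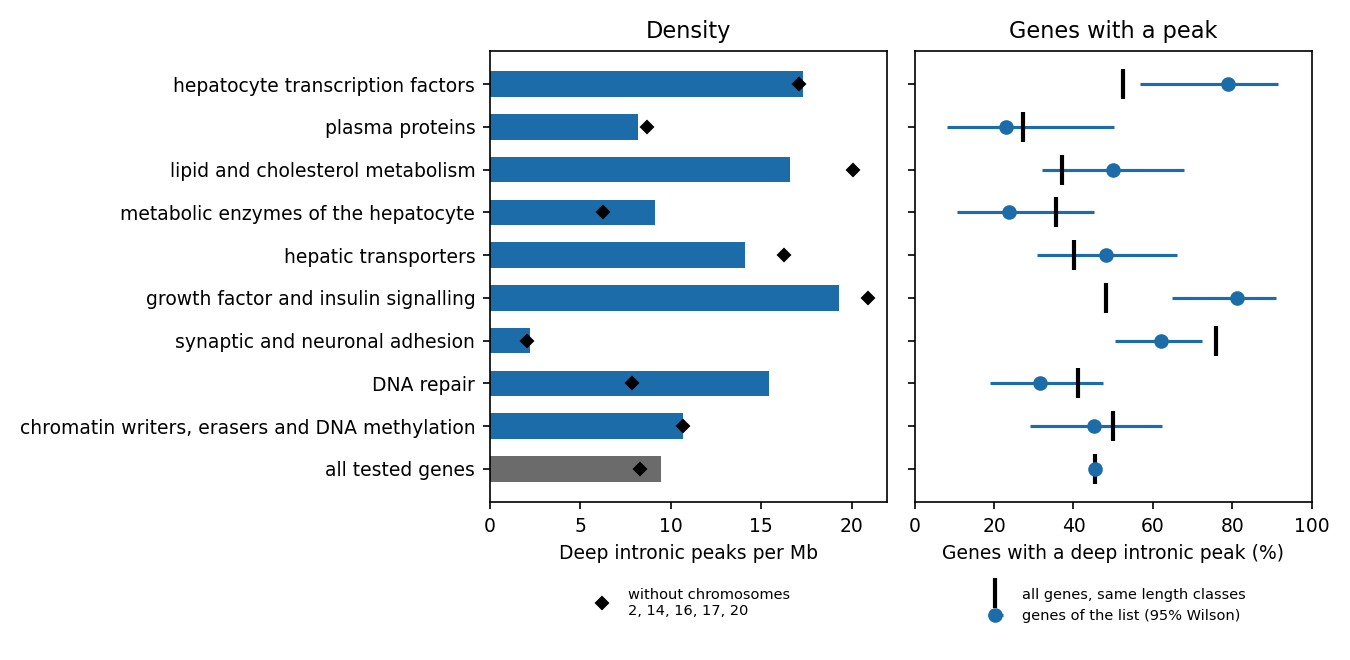
Deep intronic peaks per Mb of deep intronic sequence (left, bars, with diamonds for the same without 5 chromosomes taken as gained in HepG2) and percent of genes with a member (right, points with 95% Wilson intervals, and black ticks for all genes in the same length classes) for 9 gene lists and for all 6030 genes. The transcription factor and insulin signalling lists lie above their ticks and the synaptic list, at 2.22 per Mb, lies below its tick.

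Genes with members also had TTD peaks at their promoters more often. A TTD peak lay within 2.5 kb of the TSS of 21.6% (20.1% to 23.2%) of the 2738 genes with a member and of 15.5% (14.3% to 16.8%) of the 3292 without. The sign of the gap was the same in every length class. With 20 to 50 kb of deep intronic sequence the shares were 26.5% and 19.8%, and with 800 kb or more 9.89% (5.29% to 17.7%) and 3.57% (0.633% to 17.7%), the last from 1 of 28 genes, so the longest class shows no clear gap. The gap was wider in between. With 100 to 200 kb of deep intronic sequence the shares were 22.1% (19.4% to 25.1%) and 7.84% (5.72% to 10.7%), and with 200 to 400 kb 19.6% (16.4% to 23.2%) and 7.69% (4.64% to 12.5%). Even so, most hosts had no peak at their start, among them RAD51B, PLCB1 and WWOX.

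The base composition of the members was close to that of the introns around them. Their GC content was 41.8%, against 40.2% in deep intronic sequence without peaks. CpG dinucleotides were slightly more depleted than in the surroundings, with an observed over expected ratio of 0.199 against 0.221, and only 16 of 7941 members reached a ratio of 0.6. Near a TSS the difference in GC was the opposite, 42.6% in intronic peaks and 43.9% in intronic sequence without peaks. Distant intergenic peaks had 42.9%, against 39.3% without peaks. The members were thus CpG-poor sequence, but so were the other classes of TTD peaks. The CpG ratio was 0.2105 in intronic peaks near a TSS and 0.2007 in distant intergenic peaks. The rule itself keeps members away from protein-coding gene starts, and so from CpG island promoters there.

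HNF4A letters were the most enriched of the 7 motifs searched at the centres of the members. Both strands were searched in the central 300 bp of each peak, and the same was done for all 2644974 adjoining windows of 300 bp in deep intronic sequence without a peak. None of the letter strings contains another, although matches of different motifs may share bases at their ends. CAAAGTCCA was found in 116 members (1.46%, 1.22% to 1.75%) and in 0.354% of the windows without peaks, a ratio of 4.13. Read with the letters in reverse order (ACCTGAAAC), which keeps the composition, it was found in 0.252% of members and 0.317% of windows. The 116 members lay in 110 host genes, with at most 2 in any of them. In intronic peaks near a TSS the share was 1.75% and in distant intergenic peaks 1.72%, so the letters were as frequent in the other classes of TTD peaks.

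FOXA letters (TGTTTAC) were found in 534 members (6.72%, 6.19% to 7.30%) and 4.82% of windows, whereas the reversed letters (CATTTGT) were found in 7.22% of members and 8.32% of windows. The forward letters were more frequent in peaks and the reversed ones less. AP-1 letters (TGANTCA) were in 11.3% of members (10.6% to 12%) and 9.27% of windows, and in reverse (ACTNAGT) in 7.47% and 7.07%. CTCF letters (CCANNAGGG) were in 4.91% of members (4.46% to 5.41%) and 3.31% of windows, but their reversed form (GGGANNACC) was also more frequent in members, 2.44% against 1.88%. In the other 3 motifs the forward letters differed little from the windows. The HNF1 letters (GTTAAT), part of its full site, was in 14.3% of members (13.5% to 15.1%) and 14.5% of windows, but in reverse (TAATTG) in fewer members (13.9%) than windows (16.4%), as for FOXA. C/EBP letters (TTNNGCAA) were in 16.5% (15.7% to 17.4%) and 15.9%, and the E-box (CACGTG) in 2.97% (2.62% to 3.37%) and 2.68%. FOXA, AP-1 and CTCF letters also exceeded their windows in the other classes, so this was not particular to the members. In distant intergenic peaks the shares were 6.91%, 11.9% and 5.91%, against 4.80%, 9.36% and 3.13% of windows. In intronic peaks near a TSS they were 5.44%, 10.8% and 5.08%, against 4.09%, 8.38% and 3.90%. A match is a string of letters and not a measured binding site.

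The HNF4A letters were most frequent close to the centres of the peaks. Within 0.5 kb of the centre there were 0.472 matches per 10 kb, against 0.127 per 10 kb at 3 to 5 kb from it, a ratio of 3.71. For CTCF this ratio was 1.52, for FOXA 1.27 and for AP-1 1.21, and for the HNF1 letters it was 1.04. GC content rose over the same span from 41.0% to 42.4%. The sequence 3 to 5 kb away lies outside most members, so these ratios do not compare the middle of a peak with its edges. Narrow members had HNF4A letters more often than wide ones, with 1.89% (1.38% to 2.58%) in the narrowest 2012 members and 1.01% (0.658% to 1.56%) in the widest 1971, although these intervals overlap. Distance to the TSS made little difference, with 1.56% (1.12% to 2.18%) at 25 to 50 kb and 1.58% (1.05% to 2.39%) beyond 200 kb.

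**Figure D5:**
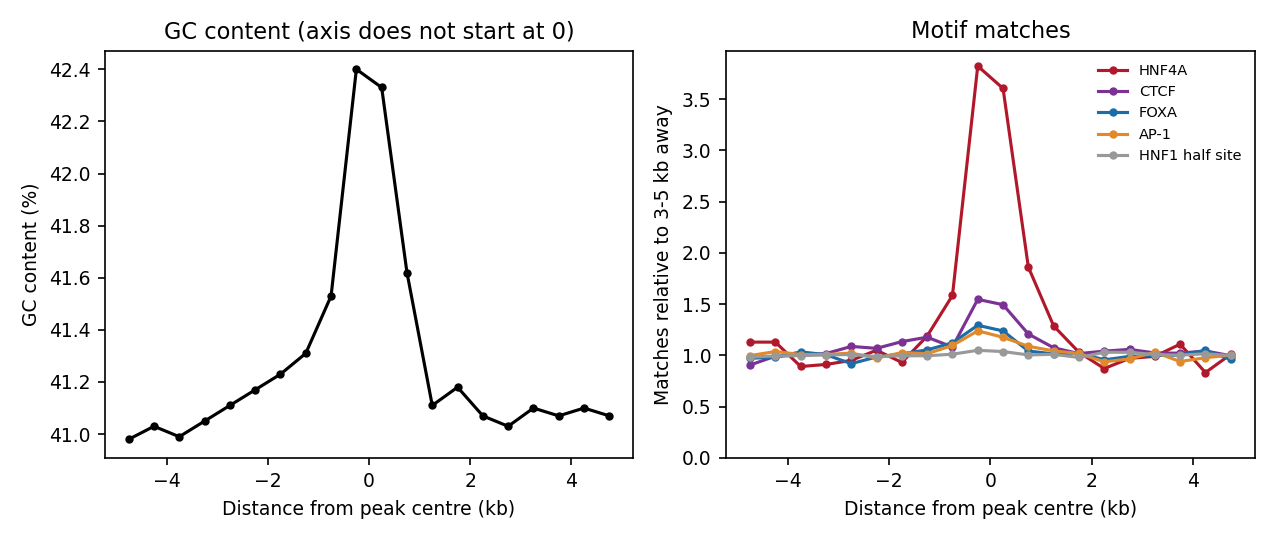
GC content in percent (left, axis not from 0) and motif matches on both strands relative to the mean at 3 to 5 kb (right) against distance from the centre of the 7941 deep intronic peaks in kb, in equal bins. HNF4A letters reach 3.82 times their outer level in the bin left of the centre and are back near 1 beyond 1.5 kb, while the HNF1 letters stay flat.

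Both HNF4A and FOXA letters occurred in the centres of 10 members. This is 10 of the 116 members with HNF4A letters, not far from the 6.72% of all members that had FOXA letters, so the 2 sets of letters occurred together about as often as their separate shares would give. In 5 of these, the NCKAP5, KCNH7, SYNPR, MLIP and ADAM12 windows printed above, they started within 20 bases of each other. Their peaks were 680 to 1920 bp wide. In the other 5, in RNF145, PSD3, ATP6V1H, TRPM3 and AKAP13, the starts were 29 to 134 bases apart. BBX, DOCK4, RAD51B, SLC39A11 and SOX5 each had 2 members with HNF4A letters. These genes were named for their matches, after the values were seen.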

How the data were processed

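Positions and widths of TTD peaks were taken from the pooled list deposited by the authors, which has no score. Per the submitters' processing notes and the study's methods, reads were trimmed (Trimmomatic 0.38), mapped to hg38 (HISAT2 2.2.1), converted to RPKM in 10 bp bins (deepTools 3.3.2) and averaged over the TTD replicates by the authors, who called broad peaks with MACS2 2.1.1 and curated them by hand.

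Classes, cover (percent of bases in peaks) and distances used GENCODE release 44, with 1 TSS taken per record (20033 protein-coding genes). The longest record holding a peak was its host, and gene counts credit every record holding it. Named by rule were the 20 hosts with the most members, the 10 largest covers, the leading 3 genes of each list, the hosts of the 10 widest members and the 4 longest genes without a member, with some results not reported. Other genes were named after their values were seen. The members and lists were chosen with earlier results of these data known. The classification was tested on simulated data. Python 3.11.15, numpy 2.4.6, scipy 1.17.1, matplotlib 3.10.9 and samtools 1.23.1 were used.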

Additional observations from a re-analysis of the deposited data

How the results depend on the processing

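No paired analysis was possible because the replicates were averaged before the peaks were called, and for the same reason no replicate could be left out. Distances to the starts of all transcripts, instead of 1 start per gene, made the rule stricter, and 3829 members remained, with a median width of 2230 bp and 2.92% cover. When the narrower part of the list, below its median width, was dropped, there were 3762 members with a median width of 3500 bp, cover was 2.60% and 26.8% of genes held a member. A limit of 10 kb gave 3.44% cover and 42.5% of genes, and a limit of 50 kb gave a median width of 2190 bp, 3.17% cover and 48.2% of genes. Using the peak midpoint gave a median width of 2300 bp, above that of the whole list, and 51.4% of genes. Without chromosomes 2, 14, 16, 17 and 20, cover was 2.83% and 42.9% of genes held a member. These follow from the changed rule or list, and copy number was not measured. With other exon sets or joined peaks there were 7330 to 8379 members, with a median width of 2110 to 2170 bp. Cover was then 3.353% to 3.415%, and 44.41% to 46.23% of genes held a member.

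With windows of 300 bp the share of HNF4A letters in members exceeded that in windows by 0.728 to 1.25 percentage points and that of FOXA letters by 1.47 to 2.26. With central windows of 1000 bp the differences were 3.32 and 4.07 and the HNF4A ratio fell from 4.13 to 3.75. HNF1 letters (-0.923 to 0.122) and the E-box (-0.243 to 0.943, the latter at 1000 bp) took both signs, and C/EBP rose from 0.614 to 1.67 without the narrower peaks. The GC difference ranged from 1.13 to 2.15 points. The first intron share ranged from 15.2% to 24.5%. The cover of the gene lists without the chromosomes taken as gained was an alternative chosen after seeing the data. For DNA repair this cover fell from 4.71% to 1.51%. Leaving out only RAD51B, which lies on chromosome 14, gave 1.725%.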

Other observations

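The peaks of 1 pooled list have no replicate error, so the intervals given here say nothing about how a second experiment would differ. Wider or more frequent peaks on some chromosomes cannot be told apart from the copies of these chromosomes in HepG2. Gene records were used as annotated, and 254 members (3.20%) lay in more than 1 of them. Repeats were not marked in the sequence used, and regions blacklisted by the authors count as sequence without peaks. Signals of H3K9me2 and input were not used here, so whether a deep intronic peak carries more H3K9me2 than its surroundings was not tested.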
